A study of Mus musculus with 40 samples.

Results

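Microtubules are hollow polymers of alpha and beta tubulin dimers, and the mouse genome encodes several isotypes of each. The 10 genes described here were the beta tubulin genes Tubb2a, Tubb2b, Tubb3, Tubb4a, Tubb4b, Tubb5 and Tubb6 and the alpha tubulin genes Tuba1a, Tuba1b and Tuba1c, matched by gene symbol among 26411 genes in each table of counts. The set was chosen by a readout of these data, since Tubb2b had stood out in comparisons with Kat6b-/- embryos. The differences between Kat6b-/- embryos and WT, Kat6b E/E or double E/E embryos are therefore given as a description, with no test.

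The libraries came from 24 whole embryos at embryonic day (E) 9.5, 4 of each of 6 genotypes, and from lineage-negative SCA-1+ c-KIT+ (LSK) fetal liver cells at E14.5, 4 libraries of each of 4 genotypes. KAT6A and KAT6B are histone lysine acetyltransferases with large chromatin-binding regions outside the catalytic domain. Kat6a-/- embryos carried the cfd allele and Kat6b-/- embryos the dec allele on both chromosomes, deletions of exons near the start of each gene. Kat6a E/E (G656E) and Kat6b E/E (G577E) animals were homozygous for a glycine to glutamate change in the acetyltransferase domain, double E/E animals were homozygous for both changes, and WT animals carried neither. All were on a C57BL/6 background. LSK cells of WT fetuses and of fetuses with either or both E/E changes were sorted by flow cytometry. LSK cells are the fraction of fetal liver that holds hematopoietic stem and multipotent progenitor cells.

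Libraries held 8401990 to 59216547 assigned read pairs. The embryos were stated to be male. However, 3 of 24 embryo libraries expressed Xist and lacked Y-linked transcripts, namely Kat6a-/- replicate 2 and Kat6b-/- replicates 2 and 3, so values without these 3 are given where they bear on a result. Of 16 LSK libraries 5 expressed Xist, with Y-linked genes summing to at most 1.58 CPM. They were WT replicate 3, Kat6a E/E replicate 2, Kat6b E/E replicate 1 and double E/E replicates 2 and 4. The LSK groups were thus unevenly mixed in sex, and sex was not a term in the fits. Counts over the whole Kat6a gene ranged from 171 to 189 CPM, the count scaled to the size of the library, in WT and from 162 to 176 CPM in Kat6a-/- embryos, and whole-gene Kat6b ranged from 38.8 to 43.5 CPM in WT and from 52.8 to 58.8 CPM in Kat6b-/- embryos. Whole-gene counts do not show whether the deleted exons were transcribed. Markers of LSK cells, such as Kit, Ptprc and Cd34, summed to 1082 to 2315 CPM in LSK libraries and 243 to 316 CPM in embryo libraries, and Cd3e of T cells was at 0 in every LSK library.

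In cells, alpha and beta tubulin are folded by the chaperonin CCT with prefoldin, paired by tubulin cofactors, and kept in balance by autoregulation, in which excess soluble tubulin triggers decay of tubulin mRNA during its translation. Isotypes differ most in the glutamate-rich tail at the end of the protein, the site of polyglutamylation and a contact for motors and other microtubule proteins. Tubb3 is the classical beta isotype of neurons, Tubb2a, Tubb2b and Tuba1a are abundant in developing brain, and Tubb5, Tubb4b and Tuba1b are widely expressed. Mutations of human TUBA1A, TUBB2B and TUBB3 cause malformations of the cerebral cortex.

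The last 60 coding bases, stop codon included, show how the isotypes differ at this tail and how alike Tubb2a and Tubb2b are. Sequences are given 5′ to 3′ on the coding strand from the GRCm39 annotation, and capitals mark the glutamate codons in frame:
Tubb2a: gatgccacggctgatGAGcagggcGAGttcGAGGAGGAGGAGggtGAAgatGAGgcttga
Tubb2b: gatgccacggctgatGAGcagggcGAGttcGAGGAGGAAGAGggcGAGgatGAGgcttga
Tubb3: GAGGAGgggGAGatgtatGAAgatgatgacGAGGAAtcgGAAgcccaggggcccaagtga
Tubb4b: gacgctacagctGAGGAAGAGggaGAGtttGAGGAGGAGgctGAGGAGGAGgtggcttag
Tubb5: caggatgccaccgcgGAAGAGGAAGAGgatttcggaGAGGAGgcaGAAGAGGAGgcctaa
Tuba1c: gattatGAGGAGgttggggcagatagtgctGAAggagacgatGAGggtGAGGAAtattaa
Of these 20 codons, 10 coded for glutamate in Tubb4b, 9 in Tubb5, 8 in Tubb2a and Tubb2b, 7 in Tubb3 and 6 in Tuba1c. Tubb2a and Tubb2b differed at 3 of the 60 bases.

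The likeness of these genes limits how well short reads can be assigned to them. Over the whole coding sequence Tubb2a and Tubb2b were 96.49% identical, with 47 differing bases of 1338, and Tuba1a and Tuba1b were 98.3% identical, with 23 of 1356. All other pairs of beta genes were 80.21 to 85.74% identical. The sources differ on the read length, and the shorter of the lengths they give, 66 bases, was used here. The following 66 bases are the same in Tubb2a and Tubb2b, so that a read from them carries nothing to tell the genes apart:
Tubb2a and Tubb2b: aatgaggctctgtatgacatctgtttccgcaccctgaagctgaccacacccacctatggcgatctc
The stretch opens a run of 551 bases without a difference between the 2 genes. The close pairs are also neighbors in the genome. Tubb2a (chr13:34257549-34261998) and Tubb2b (chr13:34307245-34315143) lie on the minus strand of GRCm39, as do Tuba1a (chr15:98847714-98851589) and Tuba1b (chr15:98827738-98832493), with Tuba1c (chr15:98927748-98936266) on the plus strand nearby. Each of the 10 genes has 4 exons in its canonical transcript.

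Of all 66-base windows in the coding sequence, 96.13% in Tuba1a, 99.77% in Tuba1b, 99.07% in Tuba1c, 94.5% in Tubb4b, 90.42% in Tubb2b, 75.1% in Tubb2a and 45.89% in Tubb3 had a copy with at most 2 differences elsewhere in the genome, whereas Tubb4a, Tubb5 and Tubb6 had none. Windows with an exact copy were fewer, at 76.61% in Tuba1a, 87.06% in Tuba1b, 81.25% in Tuba1c and 50.9% in Tubb4b. They made up 57.34% in Tubb2b, 54.99% in Tubb2a and 2.25% in Tubb3. The comparison was confined to coding sequence and to single windows, while the libraries held read pairs. The processed pseudogene Tubb2a-ps2 on chromosome 12 held copies of 78% of the Tubb2b and 59.54% of the Tubb2a windows. Its own row of counts stood at 5.73 to 8.23% of the Tubb2b count and 17.0 to 23.0% of the Tubb2a count in the 24 embryos. Values of Tubb2a, Tubb2b, Tubb4b and the 3 alpha genes are therefore uncertain where reads could be divided between copies, and sums over the closest genes are given beside the single genes.

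In WT embryos Tubb5 was the most abundant of the 10 transcripts by level per kilobase of gene length, at 1341 ± 12.4 CPM per kilobase (SD, n = 4). Tuba1b followed at 937 ± 20.6, Tuba1a at 671 ± 47.8, Tuba1c at 274 ± 4.61, Tubb4b at 263 ± 12.3 and Tubb2b at 196 ± 19.7 CPM per kilobase. Tubb2a reached 83.5 ± 10.7, Tubb3 64.98 ± 16.7, Tubb6 48.1 ± 2.24 and Tubb4a 14.2 ± 0.848 CPM per kilobase. The libraries overlapped between the neighbors Tuba1c and Tubb4b, Tubb2a and Tubb3, and Tubb3 and Tubb6, and were separate between the other neighbors in this order. The 10 transcripts together took 0.778 ± 0.0139% of the counts, and the beta genes summed to 1.07 ± 0.0134 times the alpha genes per kilobase.

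**Figure D1:**
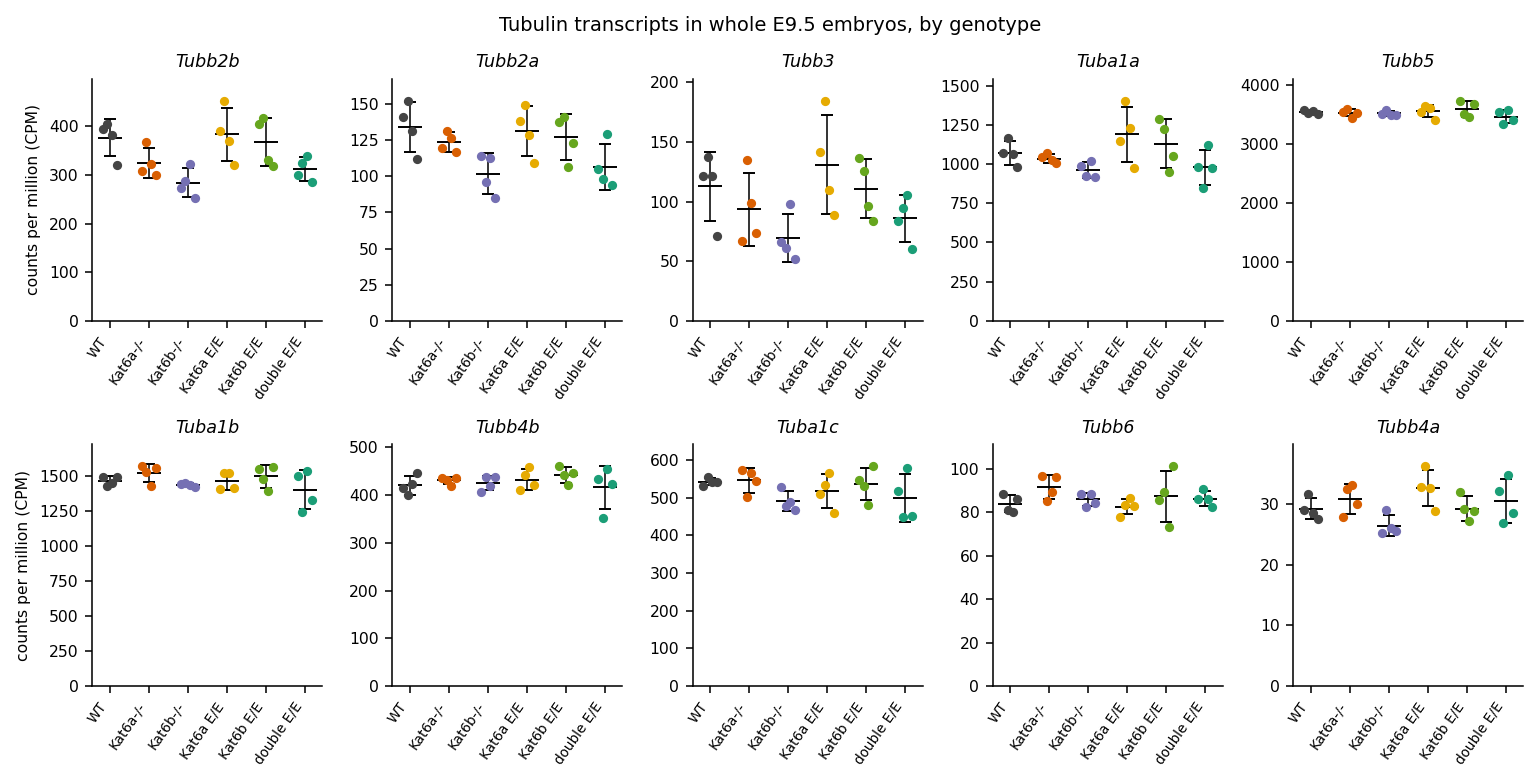
CPM of each of the 10 tubulin transcripts in the 24 E9.5 embryo libraries, by genotype. Points are libraries, horizontal bars are means and whiskers are 1 SD (n = 4). Tubb2b, Tubb2a, Tubb3, Tuba1a, Tuba1c and Tubb4a had their lowest group mean in Kat6b-/- embryos, while Tubb5 stayed between 3336 and 3731 CPM in all libraries.

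Across the 24 embryos the isotypes varied to very different degrees. Tubb5 ranged from 3336 to 3731 CPM, Tuba1b from 1244 to 1569 CPM and Tubb4b from 352 to 460.3 CPM. Tubb3 ranged most widely of the 10, from 52.1 CPM in Kat6b-/- replicate 4 to 185 CPM in Kat6a E/E replicate 2, a 3.54-fold span. Tubb2b spanned 1.79-fold, Tubb2a 1.79-fold and Tuba1a 1.65-fold. These were also the lowest and highest libraries for Tubb2b, at 253 and 452 CPM.

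Tubb2b, the member on which the set was selected, stood at 396, 406, 382 and 321 CPM in the 4 WT embryos and at 273, 287, 323 and 253 CPM in the Kat6b-/- embryos. In Kat6b E/E embryos it stood at 404, 416, 332 and 319 CPM. A single Kat6b-/- library, replicate 3, overlapped the WT range. The fitted log2 fold change of Tubb2b in Kat6b-/- against WT was -0.30 ± 0.04 (SE), that of Kat6b E/E against Kat6b-/- was 0.25 ± 0.04 and that of double E/E against Kat6b-/- was 0.10 ± 0.04.

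The other members were read in the same Kat6b-/- embryos. Tubb3 stood at 65.9, 60.8, 98.2 and 52.1 CPM there and at 122, 138, 122 and 71.0 CPM in WT, so that 1 WT library lay within the Kat6b-/- range. Tubb2a stood at 114, 95.8, 113 and 84.9 CPM in Kat6b-/- and at 141, 152, 131 and 112 CPM in WT, with replicate 4 of WT below 2 Kat6b-/- libraries. The fitted log2 fold changes against WT were -0.41 for Tubb3, -0.34 for Tubb2a, -0.19 for Tuba1c, -0.12 for Tuba1a, -0.10 for Tubb4a, -0.05 for Tuba1b, -0.02 for Tubb6, -0.02 for Tubb5 and -0.00046 for Tubb4b. The median of the 10 estimates against WT, Tubb2b included, was -0.11, where the median of all 14183 genes was 0.00054. For Kat6b E/E against Kat6b-/- the median of the 10 was 0.10. Both comparisons had a part in the choice of the set, and the genes share libraries, so the 10 are not separate observations. These 2 comparisons share the Kat6b-/- libraries. Without the 3 embryos that express Xist, which leaves 2 Kat6b-/- embryos, the Tubb2b difference from WT was -0.41.

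**Figure D2:**
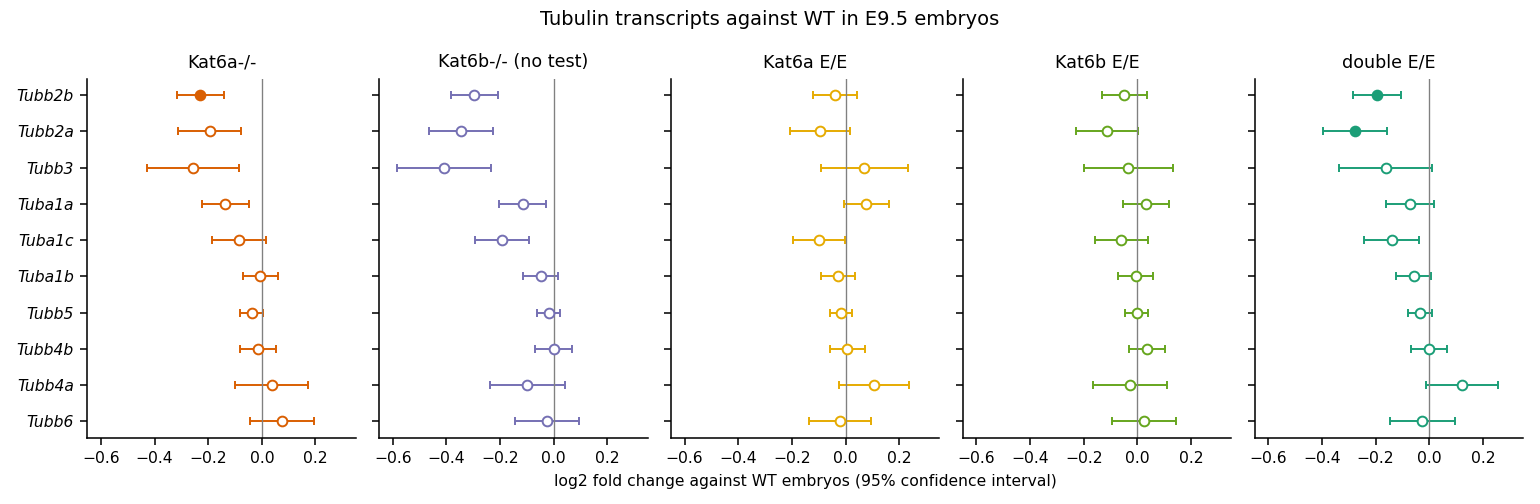
Fitted log2 fold change of each tubulin transcript against WT in 5 mutant genotypes of E9.5 embryos, with 95% confidence intervals from the model across all genes (n = 4 per genotype). Filled points had an FDR below 0.05, namely Tubb2b in Kat6a-/- and Tubb2b and Tubb2a in double E/E embryos. The Kat6b-/- panel carries no test, and all panels share the same 4 WT libraries.

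Complete loss of KAT6A was compared with WT next, a contrast that shares the WT libraries with the one above. Tubb2b stood at 309, 367, 322 and 299 CPM in Kat6a-/- embryos, and 2 of these 4 libraries lay within the WT range. Tubb2b was lower in Kat6a-/- embryos by limma, with a log2 fold change of -0.23 ± 0.04 (SE, FDR=0.0043), a change of -14.7%. It was the 1 member called of 10, against 2.64% of all 14183 genes called and 1.38% called lower. Tubb3, at 67.2, 135, 98.5 and 73.9 CPM, had a log2 fold change of -0.26 (FDR=0.096), Tubb2a one of -0.19 (FDR=0.059) and Tuba1a one of -0.14 (FDR=0.083). The other 6 members, Tubb6 (0.08) and Tubb5 (-0.04) among them, had an FDR of 0.38 or more.

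The Tubb2b call in Kat6a-/- embryos held in each of the 8 fits that left out a library (FDR=0.0034 to 0.042) and without the 3 embryos that express Xist, at -0.30 (FDR=0.0020). The summed Tubb2a and Tubb2b counts gave -0.22 (FDR=0.0053), and the summed Tuba1a, Tuba1b and Tuba1c counts gave -0.06 (FDR=0.29). Without surrogate variables, covariates that capture variation shared by many genes, the log2 fold change of Tubb2b was -0.19 (FDR=0.42), and no member was called. Within litter 5556, the only one with a Kat6a-/- and a WT embryo, the Kat6a-/- embryo, 1 of those that express Xist, was 0.11 lower in Tubb2b and 0.15 higher in Tubb3 on the log2 scale.

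Kat6a E/E embryos had Tubb2b at 391, 452, 369 and 320.5 CPM, a range that took in all 4 WT libraries. No member was called in Kat6a E/E against WT by limma, where 0.275% of all genes were, with 1 member at an unadjusted p under 0.05, as 10% of all genes were, and 0 called by edgeR or DESeq2. The confidence interval of the Tubb2b difference was -0.12 to 0.04. In Kat6b E/E against WT no gene was called (0% of 14183), 0 members and 4.41% of all genes had an unadjusted p under 0.05, and edgeR and DESeq2 called 0 members. The interval of the Tubb2b difference was -0.13 to 0.04 there.

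Kat6a E/E embryos were then compared with Kat6a-/- embryos, the test of the catalytic change against loss of the whole protein. These genotypes shared no litter, so litter and genotype cannot be told apart here. Tuba1a stood at 1147, 1403, 1230 and 975 CPM in Kat6a E/E and at 1042, 1069.8, 1023 and 1003 CPM in Kat6a-/- embryos. In 3 of the 4 Kat6a E/E embryos it was above all Kat6a-/- embryos, and in replicate 4 below all of them. Tuba1a was higher by a log2 fold change of 0.21 ± 0.04 (SE, limma FDR=0.013) and Tubb2b by 0.19 ± 0.04 (FDR=0.025), so that 2 of 10 members were called, against 1.60% of all genes and 0.973% called higher. Tubb3 had a log2 fold change of 0.33 (FDR=0.052). It was called by edgeR (0.34, FDR=0.048) and DESeq2 (0.34, FDR=0.0058), with 6 surrogate variables (FDR=0.047), without the litter block (FDR=0.041), without the filter on low counts (FDR=0.041), with all gene types (FDR=0.024) and without Kat6a E/E replicate 3 (FDR=0.033). It was not called with 2 surrogate variables (FDR=0.15), with none (FDR=0.66), with the replicate number as a block (FDR=0.21) or in any of the other 7 fits that left out a library (FDR=0.052 to 0.26).

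The Tubb2b call in Kat6a E/E against Kat6a-/- was lost without Kat6a-/- replicate 3 (0.18, FDR=0.052), Kat6a-/- replicate 4 (0.16, FDR=0.097) or Kat6a E/E replicate 2 (0.14, FDR=0.12). The Tuba1a call held in all 8 fits that left out a library. The sum of the 3 alpha genes gave a log2 fold change of 0.06 (FDR=0.34). Without the 3 embryos that express Xist, the values were 0.24 for Tuba1a (FDR=0.026), 0.27 for Tubb2b (FDR=0.0085) and 0.53 for Tubb3 (FDR=0.048). Without surrogate variables neither Tuba1a (0.14, FDR=0.61) nor Tubb2b (0.19, FDR=0.50) was called.

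In double E/E embryos the 2 adjacent genes Tubb2a and Tubb2b were lower than in WT. The litters of the double E/E embryos held no sequenced embryo of another genotype, so litter and genotype cannot be told apart here. Tubb2a stood at 105, 98.1, 129.5 and 93.7 CPM and Tubb2b at 299.7, 324, 339 and 285 CPM. Of these libraries, 1 overlapped the WT range of Tubb2a and 2 that of Tubb2b. The log2 fold change was -0.28 ± 0.06 for Tubb2a (SE, limma FDR=0.011) and -0.19 ± 0.04 for Tubb2b (FDR=0.014), so that 2 of 10 members were called, against 2.91% of all genes and 1.57% called lower. Tubb3 had a value of -0.16 (FDR=0.31) and Tuba1c one of -0.14 (FDR=0.12). The sum of Tubb2a and Tubb2b gave -0.22 (FDR=0.0069).

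Some calls in double E/E embryos were lost when a WT library was left out, with fold changes of similar size. Without WT replicate 2 neither Tubb2a (-0.25, FDR=0.060) nor Tubb2b (-0.20, FDR=0.054) was called, and without WT replicate 1 Tubb2b was not (-0.18, FDR=0.057). Without double E/E replicate 3, Tuba1c was called as well (-0.21, FDR=0.019). Without surrogate variables the values were -0.35 for Tubb2a (FDR=0.24) and -0.25 for Tubb2b (FDR=0.33).

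Double E/E embryos were also compared with the single mutants, again without a shared litter. No member was called by limma, edgeR or DESeq2 against Kat6a-/- (0.00705% of all genes called), against Kat6a E/E (0.141%) or against Kat6b E/E embryos (0.0282%). At an unadjusted p under 0.05 there were 0 members against Kat6a-/-, beside 10.4% of all genes, 4 against Kat6a E/E, beside 9.89%, and 4 against Kat6b E/E embryos, beside 12% of all genes. The interval of the Tubb2b difference between double E/E and Kat6a-/- embryos was -0.06 to 0.13. Against Kat6a E/E the 4 members were Tuba1a (-0.15, FDR=0.21), Tubb2a (-0.18, FDR=0.29), Tubb2b (-0.16, FDR=0.19) and Tubb3 (-0.23, FDR=0.37). Without double E/E replicate 3, Tubb2a was called in double E/E against both Kat6a E/E (-0.30, FDR=0.027) and Kat6b E/E (-0.28, FDR=0.046).

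Markers of early neurons moved with these members. The 18 markers summed to a median of 399 CPM in WT (242 to 461), 279 in Kat6a-/- (218 to 378), 245 in Kat6b-/- (218 to 383), 429 in Kat6a E/E (318 to 554), 365 in Kat6b E/E (269 to 388) and 301 CPM in double E/E embryos (228 to 341). None of the 18 was at 0 in the embryos. The 10 neural progenitor markers summed to 1324 to 1548 CPM in Kat6a-/-, 1492 to 1604 in double E/E and 1700 to 1819 CPM in WT embryos. Their ranges in the other mutant embryos overlapped WT. The 11 markers of mitotic cells summed to 2472 to 2596 CPM in Kat6a-/- and 2766 to 2917 CPM in WT embryos, and overlapped WT in the other mutants. In a whole embryo, fewer cells of a type and less RNA per cell cannot be told apart. Across the 24 embryos, which share genotypes, litters and developmental variation, Pearson's r of log2 CPM with the summed markers was 0.96 for Tubb3, 0.89 for Tubb2b, 0.74 for Tubb2a, 0.66 for Tuba1a and 0.51 for Tubb4a. It was 0.07 for Tubb5 and for Tuba1c, -0.12 for Tuba1b, -0.27 for Tubb4b and -0.46 for Tubb6. Spearman's rho was 0.95 for Tubb3 and 0.89 for Tubb2b.

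**Figure D3:**
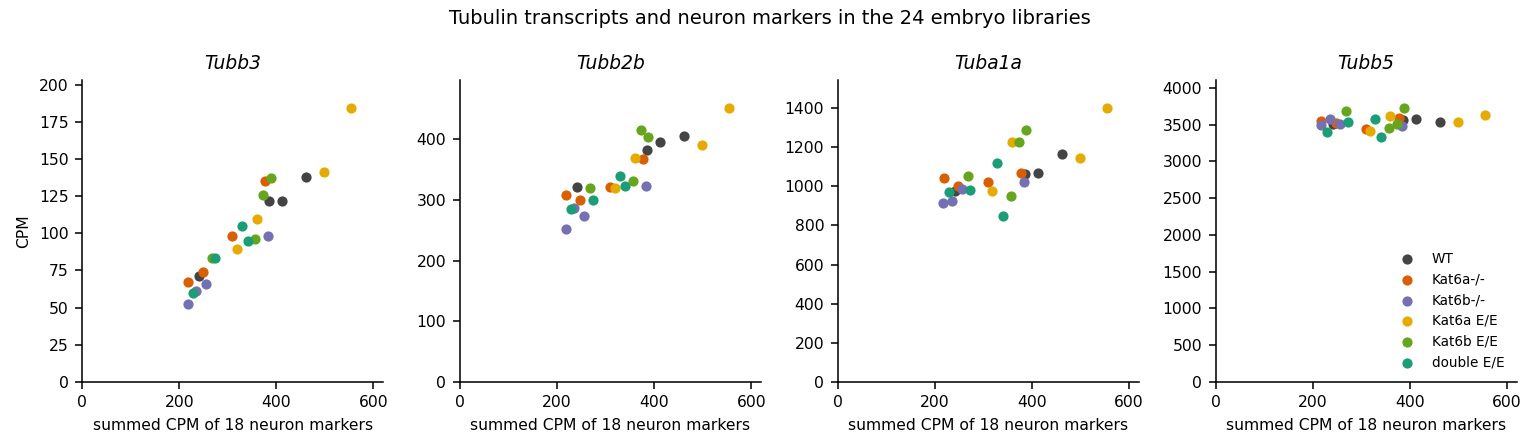
CPM of Tubb3, Tubb2b, Tuba1a and Tubb5 (vertical axes) against the summed CPM of 18 early neuron markers (horizontal axes) in the 24 E9.5 embryo libraries, 1 point per embryo, colored by genotype. Tubb3 and Tubb2b were higher where the markers were higher (r = 0.96 and 0.89), Tuba1a less closely (r = 0.66), and Tubb5 lay flat (r = 0.07).

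A further fit took the mean log2 CPM of the neuron markers, not their summed CPM, as a covariate in place of surrogate variables. No member was called with it in Kat6a-/- against WT, double E/E against WT or Kat6a E/E against Kat6a-/-. In these comparisons no member was called with neither the covariate nor surrogate variables, so the absence of calls cannot be credited to the covariate. With the covariate the Tubb2b log2 fold change was -0.06 (FDR=0.69), -0.12 (FDR=0.36) and -0.0037 (FDR=0.99), beside -0.19, -0.25 and 0.19 with neither. Tubb3 was 0.19 (FDR=0.25), 0.02 (FDR=0.95) and -0.20 (FDR=0.41) with the covariate, beside -0.18, -0.35 and 0.38 with neither. Tubb2a in double E/E against WT kept a value of -0.24 with the covariate (FDR=0.26), beside -0.35 without it. In Kat6b-/- against WT Tubb2b was -0.21 with the covariate and -0.38 without it, again with no surrogate variables. This covariate is an outcome measured in the same embryos, and the fit was added after the data were seen.

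Of 14182 other genes tested in embryos, the 5 whose log2 CPM correlated best with Tubb2b over the 24 libraries were Tubb3 (r = 0.95), the neuronal reticulon Rtn1 (0.93), the tubulin-sequestering stathmin Stmn2 (0.92), the intermediate filament gene Vim of neural progenitors and mesenchyme (0.92) and the creatine kinase Ckb (0.92). Tubb2a ranked 20th at 0.87. For Tubb3 they were Stmn2 (0.96), the neurofilament gene Nefl (0.95), Ckb (0.95), Tubb2b (0.95) and Insm1, a factor of newborn neurons (0.93). These embryos share litters and genotypes, and for Tubb2a and Tubb2b also reads that match both genes.

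Other genes of tubulin biology were read from lists. In Kat6a-/- against WT embryos, 0 of 6 other tubulins tested, 0 of 9 folding cofactors and autoregulation genes and 0 of 14 genes of CCT and prefoldin were called by limma, with 0, 2 and 0 at an unadjusted p under 0.05, beside 16.9% of all genes. Vash1, a tubulin tyrosine carboxypeptidase, was the 1 of 14 tubulin-modifying enzymes called (-0.25, FDR=0.028), and the stathmin Stmn3 the 1 of 27 microtubule-associated proteins (-0.83, FDR=0.034). The medians of the last 2 lists were -0.04 and -0.13, beside -0.0025 over all genes. Of all genes 2.64% were called in this comparison and 1.38% were called lower. Of the 18 neuron markers 3 were lower, Elavl4 (-0.48, FDR=0.028) and Ina (-0.61, FDR=0.043) among them, and of 10 neural progenitor markers 4 were lower, Nes (-0.53, FDR=0.0025), Sox3 (-0.47, FDR=0.0059), Sox2 (-0.33, FDR=0.015) and Pax6 (-0.28, FDR=0.043). The part of progenitors in the tubulin values was not tested.

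In Kat6a E/E against Kat6a-/- embryos 4 of 27 microtubule-associated genes were higher, the neuronal genes Dcx (0.84, FDR=0.0072), Dclk1 (0.34, FDR=0.028), Map6 (0.43, FDR=0.029) and Stmn3 (0.85, FDR=0.043). With them 5 of 18 neuron markers were higher, among them Elavl4 (0.64, FDR=0.0070), Dcx, which is in both lists, Nefl (0.66, FDR=0.0095) and Ina (0.74, FDR=0.022). Of 10 progenitor markers 1 was higher, Nes (0.57, FDR=0.0025). These counts stand beside 1.60% of all genes called and 0.973% called higher. In double E/E against WT embryos the beta tubulin cofactor gene Tbca (0.26, FDR=0.036) and the prefoldin subunit gene Vbp1 (0.20, FDR=0.038) were higher, each 1 of its list, while the progenitor marker Msi1 (-0.19, FDR=0.029) and the mitotic cyclin Ccnb1 (-0.15, FDR=0.036) were lower. No gene of the other 9 lists was called there, beside 2.91% of all genes called and 1.57% called lower. In the remaining embryo comparisons that carry a test no gene of any list was called, and no comparison of embryos called an other tubulin or a primitive erythroid, LSK, lineage-positive, hepatocyte or platelet marker.

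LSK cells held a different tubulin make-up from whole embryos. Tubb2b stood at 396, 406, 382 and 321 CPM in WT embryos and at 4.17, 3.12, 2.24 and 4.99 CPM in WT LSK cells. Tubb3 stood at 0.688, 0.483, 0.373 and 2.37 CPM in WT LSK cells, on 10 to 140 counts. Neither gene overlapped between the tissues, and Tubb3 in LSK replicate 4 stood apart from the other 3. WT LSK replicates 1 to 3 came from litter 753 and replicate 4 from litter 1111. Without replicate 4 the WT LSK values therefore rest on litter 753 alone. The log2 fold change of LSK cells against embryos was -6.45 ± 0.28 for Tubb2b (SE, limma FDR=1.65e-08) and -6.39 ± 0.96 for Tubb3 (FDR=0.00023), which became -7.61 (FDR=0.0027) without LSK replicate 4.

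All 10 members differed between the tissues, against 77.9% of 14462 genes called (37.2% higher and 40.8% lower in LSK cells). Tubb4b was the only member higher in LSK cells, at 557, 559.9, 577.1 and 678 CPM against 399 to 446 CPM in embryos, with a log2 fold change of 0.60 ± 0.07 (FDR=2.1e-05). Tuba1b (-0.32), Tuba1c (-0.49) and Tubb5 (-0.68) were modestly lower. Tubb6 (-1.84), Tubb2a (-2.90), Tuba1a (-3.45) and Tubb4a (-3.64) were lower by larger steps. Tuba1a stood at 91.5 to 95.02 CPM in the 4 WT LSK libraries and at 978 to 1164 CPM in WT embryos. The summed Tubb2a and Tubb2b gave -4.53, and the summed alpha genes -0.89.

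**Figure D4:**
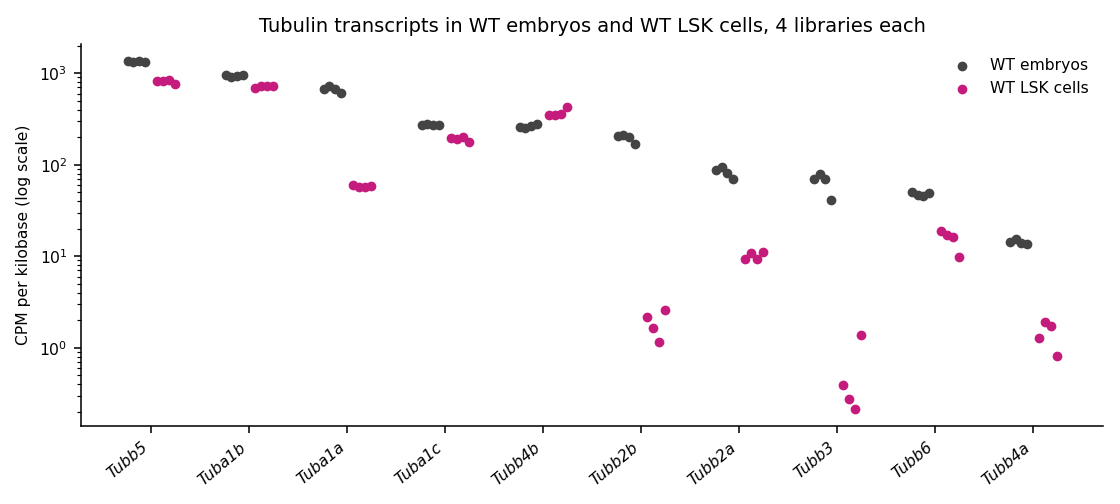
CPM per kilobase of gene length, on a log axis, of the 10 tubulin transcripts in 4 WT embryo and 4 WT LSK libraries, 1 point per library, in the order of the embryo means. Tubb2b and Tubb3 were farthest apart between the tissues (fitted log2 fold changes -6.45 and -6.39), and of the 10 transcripts Tubb4b was the 1 higher in LSK cells.

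Per kilobase the order in WT LSK cells was Tubb5 (815 ± 36.3), Tuba1b (716 ± 22.7), Tubb4b (371 ± 36.0), Tuba1c (191 ± 10.9), Tuba1a (58.5 ± 1.09), Tubb6 (15.6 ± 3.92), Tubb2a (10.2 ± 0.979), Tubb2b (1.89 ± 0.625), Tubb4a (1.43 ± 0.497) and Tubb3 (0.562 ± 0.538 CPM per kilobase, SD, n = 4). Neighbors overlapped between Tubb6 and Tubb2a and among the last 3. The 10 transcripts took 0.439 ± 0.00886% of the counts, and the ratio of beta to alpha per kilobase was 1.26 ± 0.0152. Tissue, embryonic day and cell sorting changed together between the embryo and LSK libraries and cannot be told apart.

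Within the 7 beta members, Tubb5 took 66.7 ± 1.04% of the level per kilobase in WT embryos and 67.1 ± 2.71% in WT LSK cells. Tubb4b took 13.1 ± 0.890% and 30.5 ± 2.91%, and Tubb2b 9.73 ± 0.789% and 0.156 ± 0.0523%. Of the 3 alpha members, Tuba1a took 35.6 ± 1.90% in WT embryos and 6.07 ± 0.234% in WT LSK cells, Tuba1b 49.8 ± 1.82% and 74.1 ± 1.21%, and Tuba1c 14.6 ± 0.279% and 19.8 ± 1.14%. The Tubb2b share of the beta members was between 7.73 and 9.78% in the mutant embryo groups, lowest in Kat6b-/- embryos.

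**Figure D5:**
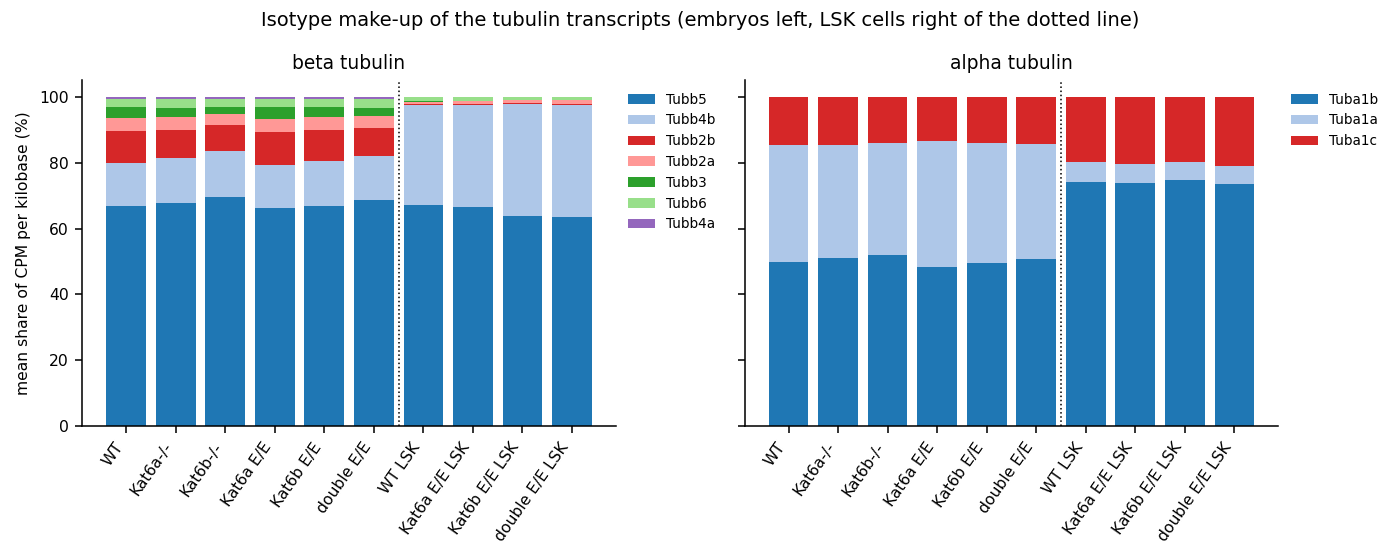
Mean share of each isotype in the summed CPM per kilobase of the 7 beta (left) and 3 alpha (right) tubulin genes, in 6 embryo groups and 4 LSK groups (n = 4 each). Tubb5 took a mean of 63.4 to 69.7% of the beta sum in each group, and LSK cells held more Tubb4b (30.5% in WT) and less Tuba1a (6.07% in WT) than embryos.

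The counts of the lists are to be read against the 77.9% of all genes called between the tissues. All 18 neuron markers and all 10 progenitor markers were lower in WT LSK cells, and neuron markers summed to 0.315 to 4.85 CPM over the LSK libraries, with 5 of 18 at 0 in each of the 16. The alpha tubulin genes Tuba4a (5.54, FDR=3.13e-10) and Tuba8 (5.88, FDR=6.59e-06) were higher in LSK cells, the gamma tubulin genes Tubg1 (-0.56) and Tubg2 (-1.85) were lower, and 6 of 7 other tubulins tested were called. The microtubule-associated genes Map4 (-1.91), Camsap1 (-1.39), Map1b (-9.34) and Camsap3 (-2.19) led 21 of 27 that were lower, beside 4 that were higher. Of 14 CCT and prefoldin genes 7 were higher, among them Pfdn6 (0.53), Cct4 (0.22), Tcp1 (0.18) and Cct2 (0.20). Of 9 cofactor and autoregulation genes Tbcel (0.77) and Tbce (0.57) were higher and 3 lower, Tbcb (-0.64) and Arl2 (-0.30) among them. Of 14 modifying enzymes 2 were higher and 8 lower, led by Vash2 (-4.70), Hdac6 (-1.33), Atat1 (-1.30) and Vash1 (-2.02). Of 11 mitotic markers 6 were higher and 3 lower, with Mki67 at 1.099, and the mitotic list summed to 2472 to 3186 CPM in embryo and 3037 to 3758 CPM in LSK libraries. Of the blood and liver lists, 7 of 9 LSK markers were higher and 2 lower, 2 of 3 lineage-positive and 3 of 6 platelet markers tested were higher, 3 of 6 primitive erythroid markers were lower, and of 6 hepatocyte markers Alb (4.51) was higher and Fgb (-1.36) lower. The part of cell types in the tubulin differences between the tissues was not tested.

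Among LSK cells, no member was called by limma in Kat6a E/E against WT (1.36% of 13071 genes called), Kat6b E/E against WT (0%), double E/E against WT (0%) or double E/E against Kat6a E/E (0%). Members at an unadjusted p under 0.05 numbered 3, 0, 1 and 0, beside 12.5%, 2.78%, 6.85% and 1.51% of all genes, and edgeR and DESeq2 called 0 members in each. The lowest FDR of a member in these was 0.33, for Tubb3 in Kat6a E/E against WT. Tubb3 is near its detection limit in these cells, with counts of 4 to 26 per library in Kat6a E/E and 0 in double E/E replicate 2, which allows up to 0.182 CPM for Tubb3 and likewise for Tubb4a, by 3 counts and for counting error only. Tubb6 was called in Kat6b E/E against WT without WT replicate 4 (-0.76, FDR=0.029), where it stood at -0.34 with all libraries. Without that replicate all WT LSK libraries came from litter 753.

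Double E/E LSK cells were also compared with Kat6b E/E LSK cells. Tubb4b stood at 512, 688, 695 and 739 CPM in double E/E and at 629, 799, 829.8 and 604 CPM in Kat6b E/E cells, and the 2 groups overlapped. The log2 fold change was -0.30 ± 0.08 (SE, limma FDR=0.056), and no member was called against 1.48% of all genes. Of the 10 members 4 had an unadjusted p under 0.05, as did 20.8% of all genes, the others being Tuba1b (-0.22, FDR=0.087), Tubb3 (-2.55, FDR=0.086) and Tubb5 (-0.15, FDR=0.15). EdgeR and DESeq2, without a litter term, each called 3, Tubb4b, Tuba1b and Tubb3, and the share of all genes called in those fits is not given. Tubb3 stood at 0.261, 0, 2.30 and 2.20 CPM in double E/E and at 1.81, 2.86, 1.94 and 2.37 CPM in Kat6b E/E cells, so that 2 double E/E libraries lay near 0 and the other 2 within the Kat6b E/E range, and the means were 1.19 and 2.24 CPM. In litter 970, which held 1 fetus of each of these genotypes, the double E/E library was 0.30 lower in Tubb4b and 0.18 lower in Tuba1b. Of the lists, Ttll12 of the tubulin-modifying enzymes (-0.49, FDR=0.026) and the megakaryocyte marker Itga2b (-1.21, FDR=0.021) were lower, and Ptprc (0.44, FDR=0.044) and the myeloid marker Itgam (0.64, FDR=0.021) higher. Itga2b was also lower in Kat6a E/E against WT LSK cells (-0.78, FDR=0.018). The part of other blood cells in the tubulin values was not tested.

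Whether a genotype changed the members differently in LSK cells and embryos was tested as an interaction. No member was called by limma for Kat6a E/E (0.0929% of 15073 genes called), Kat6b E/E (0%) or double E/E (0%), and 0 were called by edgeR. In each, 0 members had an unadjusted p under 0.05, beside 7.88%, 2.60% and 6.51% of all genes.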

How the data were processed

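RNA-seq was measured in 24 whole E9.5 embryos and 16 E14.5 LSK cell samples. The authors aligned read pairs to mm39 with Rsubread and deposited raw counts per RefSeq gene from featureCounts, without normalization and from a kit that does not mark strand. Of 26411 genes, 26359 matched a RefSeq table by identifier and 52 were left out. Totals ran from 8401990 to 59216547 counts, and their number limits the precision.

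Samples were grouped by the genotype and tissue in their labels. Embryos came from 17 litters and LSK cells from 9. Counts were scaled by TMM over the 40 libraries with edgeR 4.0.16 in R 4.3.3 to give CPM, and divided by the gene length of the files for CPM per kilobase. Differences were fitted with limma 3.58.1 (voomLmFit) across protein-coding genes without Y-linked genes that passed filterByExpr, with 4 surrogate variables, a random term for litter, moderation by the robust form of eBayes, and calls at a Benjamini-Hochberg FDR under 0.05. Embryos (14183 genes), LSK cells (13071) and the interactions (15073) were fitted apart, and WT LSK cells against WT embryos (14462) without surrogate variables. Fits with edgeR, DESeq2 1.42.0, other numbers of surrogate variables, no litter block, no filter, all gene types, the replicate block, summed copies and each library left out were alternatives. The fit was tested on simulated data.

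The tubulin genes and the 13 gene lists were chosen with earlier results of these data known. Named genes are the 10 tubulin genes, up to 4 called genes of each list and comparison by smallest p, and the 5 genes most like Tubb2b and Tubb3. Some items are not reported here. Replicates of a genotype are separate embryos or fetuses, some of them littermates. WT LSK replicates 1 to 3 came from litter 753 and double E/E LSK replicates 2 to 4 from litter 1045. No pair of libraries of a group was a duplicate (60 pairs compared).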

Additional observations from a re-analysis of the deposited data

How the results depend on the processing

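The calls in Kat6a-/- against WT, double E/E against WT and Kat6a E/E against Kat6a-/- embryos (1, 2 and 2 tubulin genes) depended on the surrogate variables. Each count fell to 0 with 0 surrogate variables, with edgeR without them and with only the 2 genotypes compared. It was also 0 with the neuron covariate, in a fit that likewise had no surrogate variables. This covariate was chosen after seeing the data. With it the Tubb2b value in Kat6a E/E against Kat6a-/- was -0.0037 (FDR=0.99), beside 0.19 (FDR=0.50) with 0 surrogate variables alone. In Kat6a-/- against WT, 6 surrogate variables gave 3, edgeR 2 and DESeq2 3. In Kat6a E/E against Kat6a-/-, edgeR, DESeq2, 6 surrogate variables, no litter block, no filter and all gene types gave 3, Tubb3 among them. In double E/E against Kat6a E/E embryos, where 0 were called, 2 surrogate variables gave 2, and 6 surrogate variables, no filter on low counts and the replicate block gave 1 each, Tubb2b. In double E/E against Kat6b E/E LSK cells, 2 surrogate variables or no litter block gave 2, and edgeR and DESeq2 3. The edgeR and DESeq2 fits had no litter term. The share of all genes called is not given for the alternative fits or for those with a library left out. Their counts therefore describe the tubulin genes alone. The cause was not tested.

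With a library left out, the count ranged from 0 to 3 in double E/E against WT, from 1 to 3 in Kat6a E/E against Kat6a-/-, from 0 to 1 in double E/E against Kat6a E/E or Kat6b E/E embryos and in Kat6b E/E against WT LSK cells, and from 1 to 1 in Kat6a-/- against WT. All 10 tissue calls held in each fit run. Deviations from the group means had a mean r of 0.040 between same-numbered embryos and -0.013 between other numbers. Of 24 embryo libraries 7 correlated best with their own number. These averages cannot show whether same-numbered samples shared a processing step. Tubb3 and Tubb4a are limited by depth in LSK cells.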
